A study of Camellia sinensis and Camellia sinensis var. assamica with 18 samples.

Results

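This report describes 5 tea plant genes annotated as late embryogenesis abundant (LEA), dehydrin or cold-inducible proteins, followed through cold acclimation and de-acclimation in a cold-tolerant and a cold-sensitive cultivar. The genes were taken by identifier and are LEA (CSS041102, CsLEA), LEA3L-1 (CSS015767, CsLEA3L-1), a cold-inducible protein (CSS039533, CsCIP), a dehydrin (CSS006326) and the embryonic protein DC-8 (CSS032854). They occupied 6 of the 41021 loci of the deposited expression table, because 2 assembled loci carry the identifier CSS032854. Only 1 of these has a product description and is called DC-8 here, and the other is called by its assembly name, MSTRG.16970. All 6 loci were among the 29019 loci with at least 1 FPKM (fragments scaled by transcript length and by library depth) in at least 3 libraries, which were tested. Both DC-8 loci passed this filter only through the cold-acclimated libraries. The files give no position for any of the 6 loci, so none is printed.

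RNA was sequenced from tissue culture seedlings, 4 to 5 cm high, of 'Shuchazao' (SCZ, cold-tolerant) and of 'Yinghong 9' (YH9, var. assamica, cold-sensitive). Non-acclimated plants (NA) were sampled on day 0, with days of 25 °C and nights of 20 °C. Cold-acclimated plants (CA) were sampled on day 14, after 7 days at 10/4 °C and 7 days at 4/0 °C, and de-acclimated plants (DA) on day 21, after 7 more days at 25/20 °C. Each of the 6 groups had 3 libraries, and a library held estimated counts between 47291392 and 78305612. All groups were raised in tissue culture, and 1 cultivar stood for each tolerance class, so that tolerance and every other difference between SCZ and YH9 cannot be told apart. No plants kept warm throughout were sampled on day 14 or 21. The effects of stage and of sampling day or plant age therefore cannot be told apart either. The 3 libraries of a group are described as biological replicates. The labels name only the seedlings, and the study's methods state that leaves were collected. Of the leaf markers, the summed level of 20 chlorophyll a-b binding loci was 20303 to 29262 FPKM in the NA libraries, 1137 to 5526 in the CA libraries and 4121 to 6939 in the DA libraries. It was thus lower at CA and at DA than at NA, and the CA and DA ranges overlapped. The summed level of 2 rubisco small subunit loci went the other way at CA in YH9. It was 284 to 388 FPKM in YH9_NA, 1379 to 2479 in YH9_CA and 314 to 588 in YH9_DA. In SCZ it overlapped between stages (701 to 1477 in SCZ_NA, 499 to 1545 in SCZ_CA and 820 to 2221 in SCZ_DA). The part of these markers in the results was not tested. Markers of seed and embryo storage (10 loci) summed to 0.602 to 5.74 FPKM, of xylem and secondary wall (11 loci) to 1.62 to 89.9, and of the root endodermis (4 loci) to 0 to 7.27. The xylem markers were lowest in SCZ_CA (1.62 to 10.3 FPKM) and their part in the results was not tested. In bulk samples fewer cells of a type and less RNA per cell cannot be told apart.

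LEA proteins are hydrophilic proteins that plants build up late in seed development, when the embryo dries, and again in leaves and stems under drought, salt or freezing, all of which withdraw water from the cell. Many of them are unfolded in solution and are thought to shield membranes and other proteins as water is lost. Dehydrins are the LEA group recognised by a lysine-rich repeat, and DC-8 was first described in carrot embryos. In many plants such genes lie downstream of the CBF transcription factors, which are switched on by cold, and are therefore grouped with the COR (cold-regulated) genes. The product name of the cold-inducible protein says only that cold induces it, and its function is not known to the files.

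RT-qPCR primers exist for LEA, LEA3L-1 and the cold-inducible protein, and are shown because they are the only sequences at hand that identify the transcripts behind these names. Each is a designed oligonucleotide, given from its 5′ end.
CsLEA forward: ctgatggagaaggcgaagaac
CsLEA reverse: ggaacggagtgactgtaagg
CsLEA3L-1 forward: ggcagcatcacaaggagttg
CsLEA3L-1 reverse: cttcaagagcatctcacgcaat
CsCIP forward: ggaggagaccttcatgttcaga
The CsLEA primers are 21 and 20 bases long and the CsLEA3L-1 primers 20 and 22. For CsCIP the primer list gives the same 22 bases as the forward and the reverse primer, so its reverse primer is not known here. Other loci of the table carry the same product names as these genes (CSS038121 for LEA, CSS015413, CSS011745 and CSS048723 for LEA3L-1, CSS024403 and CSS039530 for the cold-inducible protein). Whether these loci are close in sequence is not known here. Reads may have been divided between loci of similar sequence in the counting, and the division of such counts is uncertain.

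The choice of these genes used measured values. DC-8 was chosen for its change from NA to CA in both cultivars, the dehydrin for its change from SCZ_NA to SCZ_DA, and the other 3 genes are cold-regulated genes that the study selected. The levels at NA, CA and DA within a cultivar are therefore given as a description without a test. The exception is the fall from CA to DA, which was tested for the other 3 genes. For reference, 34.1% of all loci tested were called in SCZ_CA vs. SCZ_NA and 25.8% in YH9_CA vs. YH9_NA, where called means an adjusted p under 0.05 from edgeR's quasi-likelihood test and a change of at least 2-fold. After de-acclimation 3.03% were called in SCZ_DA vs. SCZ_NA and 0.376% in YH9_DA vs. YH9_NA. Nothing is read from these shares about the 5 genes.

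All 5 genes were at their highest group mean in a cold-acclimated group. In SCZ_NA the 6 loci took 0.0114%, 0.0115% and 0.0381% of the counts of the 3 libraries in order of size, and in YH9_NA 0.0104% to 0.0152%. In SCZ_CA they took 1.02% to 1.48%, and in YH9_CA 0.573% to 0.609%. After de-acclimation the share was 0.0196% to 0.0268% in YH9_DA, while in SCZ_DA it was 0.0469%, 0.115% and 0.536%. The SCZ_CA libraries thus all lay above the YH9_CA libraries, and the SCZ_DA libraries differed more among themselves than any other group. LEA3L-1 alone took 0.424% to 0.947% in SCZ_CA and 0.154% to 0.180% in YH9_CA. Mean FPKM at CA was higher in SCZ for LEA3L-1, the cold-inducible protein and the dehydrin, and higher in YH9 for LEA, DC-8 and MSTRG.16970.

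**Figure D1:**
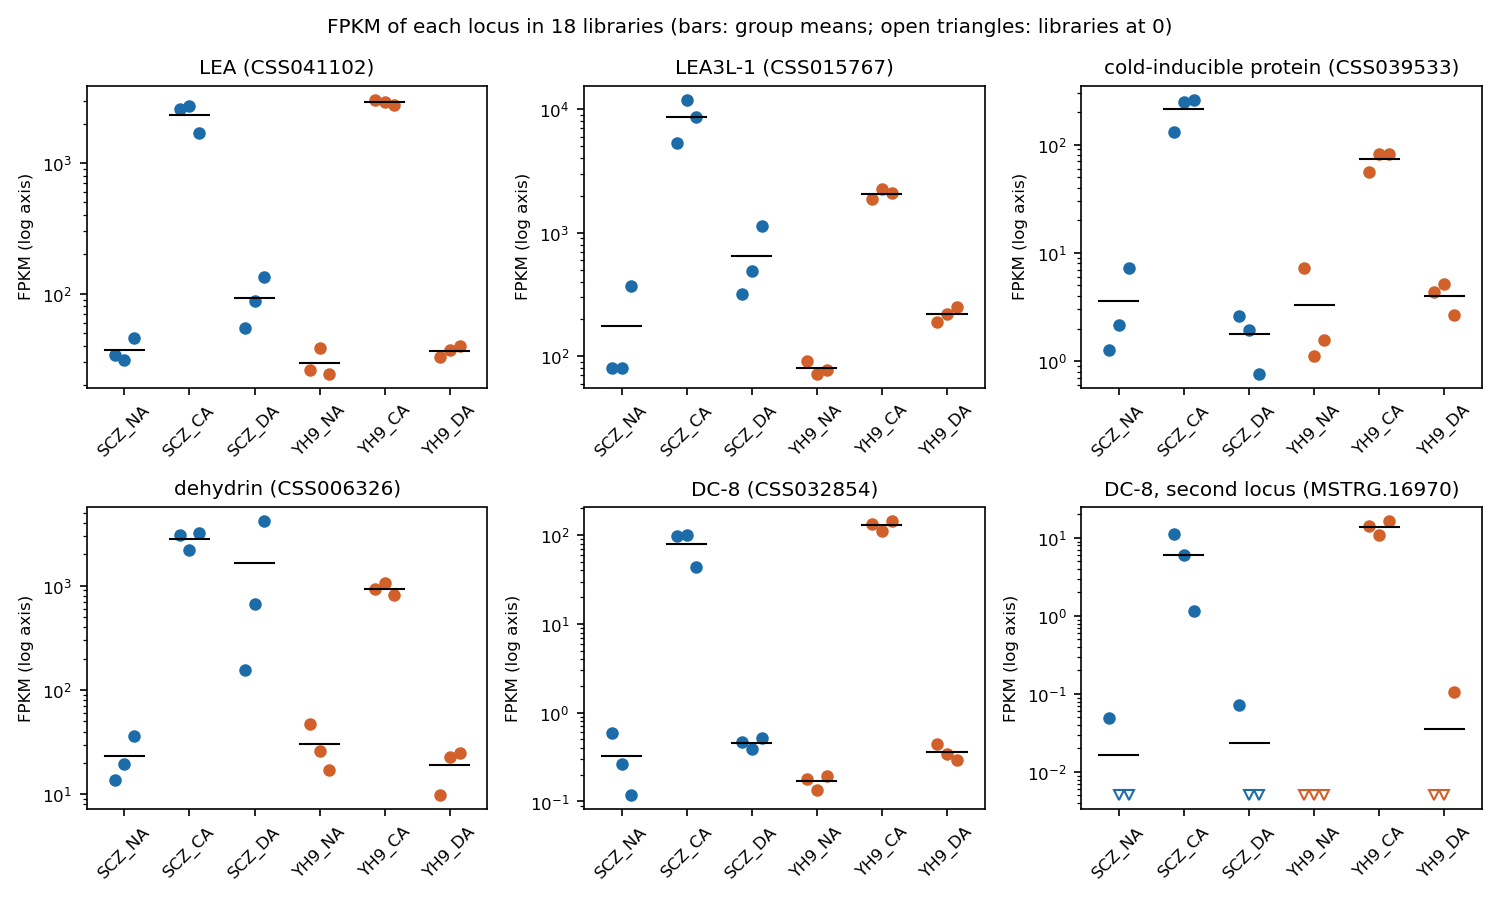
FPKM on a log axis (vertical) of each of the 6 loci in the 18 libraries, with 1 point per library ordered by replicate number within its group (horizontal), blue for SCZ and orange for YH9, black bars for group means and open triangles for libraries listed at 0. In each panel the 3 SCZ_CA and 3 YH9_CA libraries stand above the NA libraries of the same cultivar, and the dehydrin alone has an SCZ_DA library (4149 FPKM) above its SCZ_CA libraries.

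LEA3L-1 was the most abundant of the 5 genes per transcript length in SCZ_CA, and it was the gene with the clearest cultivar difference under cold. Its levels in SCZ_CA were 5326, 11936 and 8604 FPKM, and in YH9_CA 1887, 2249 and 2083 FPKM. The highest of the YH9_CA libraries was below the lowest of the SCZ_CA libraries. Before acclimation the SCZ_NA libraries had 80.3, 80.4 and 368 FPKM and the YH9_NA libraries 91.6, 71.8 and 77.0. Replicate 3 of SCZ_NA was thus far above the other SCZ_NA libraries, which lay among those of YH9_NA. After de-acclimation the levels were 316, 488 and 1133 FPKM in SCZ_DA and 189, 222 and 252 FPKM in YH9_DA, and neither group overlapped its CA group or the other cultivar. The log2 fold change was 5.82 (SE 0.66) in SCZ_CA vs. SCZ_NA and 4.65 (SE 0.63) in YH9_CA vs. YH9_NA. Without SCZ_NA replicate 3 the SCZ value was 6.82. From the highest to the lowest mean the groups ran SCZ_CA, YH9_CA, SCZ_DA, YH9_DA, SCZ_NA and YH9_NA, and of these neighbours YH9_DA and SCZ_NA overlapped, as did SCZ_NA and YH9_NA.

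LEA (CSS041102) was at 1704 to 3043 FPKM in the cold-acclimated libraries and was called different between the cultivars at DA but not at NA or CA. In SCZ_CA it had 2576, 2739 and 1704 FPKM, and in YH9_CA 3043, 2906 and 2793 FPKM. The YH9_CA libraries were all above those of SCZ_CA, by little at the closest. At NA the levels were 33.8, 30.9 and 46.0 FPKM in SCZ and 26.2, 38.6 and 24.4 FPKM in YH9, and the groups overlapped. De-acclimated SCZ had 54.7, 88.1 and 136 FPKM, all above the SCZ_NA libraries, whereas de-acclimated YH9 had 33.0, 37.2 and 39.9 FPKM, overlapping its NA libraries. As log2 fold changes, CA vs. NA was 6.10 (SE 0.39) in SCZ and 6.58 (SE 0.39) in YH9, and DA vs. NA was 1.28 in SCZ and 0.12 in YH9. Ordered by mean, YH9_CA stood above SCZ_CA, then SCZ_DA, SCZ_NA, YH9_DA and YH9_NA, and the last 3 of these overlapped.

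The cold-inducible protein was the gene of lowest level outside the cold among the 3 that the study selected. It had 131, 247 and 259 FPKM in SCZ_CA and 55.9, 81.7 and 82.1 FPKM in YH9_CA, with no overlap. At NA the values were 1.26, 2.17 and 7.26 FPKM in SCZ and 7.21, 1.11 and 1.58 FPKM in YH9, so that in each cultivar 1 library was well above the other libraries. In SCZ_DA they were 2.62, 1.92 and 0.761 FPKM, and in YH9_DA 4.34, 5.11 and 2.65 FPKM. The order of the cultivars was therefore the opposite at CA and at DA, though the closest libraries of the DA groups had almost the same level. CA vs. NA gave a log2 fold change of 6.13 (SE 0.83) in SCZ and 4.39 (SE 0.77) in YH9. These were 7.10 without SCZ_NA replicate 3 and 5.77 without YH9_NA replicate 1, the libraries of high NA level. Counts at NA and DA were between 23 and 235 per library, against 1396 to 10944 at CA.

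The dehydrin was the gene that stayed high after de-acclimation in SCZ, and the size of this rested largely on 1 library. Its levels were 13.9, 19.5 and 36.4 FPKM in SCZ_NA, 3044, 2221 and 3194 FPKM in SCZ_CA, and 155, 660 and 4149 FPKM in SCZ_DA. Every SCZ_DA library lay above every SCZ_NA library, and they spanned a range from 5.50% to 147% of the SCZ_CA mean. In YH9 it had 47.5, 26.1 and 17.1 FPKM at NA, 935, 1052 and 813 FPKM at CA, and 9.76, 22.9 and 24.8 FPKM at DA. The YH9_DA libraries were back among the YH9_NA libraries or under them. The log2 fold change of SCZ_DA vs. SCZ_NA, the contrast on which the gene was chosen, was 6.18, and 4.07 without SCZ_DA replicate 3. SCZ_DA vs. SCZ_CA was −0.94 (SE 0.79), and −3.04 without that library, and SCZ_DA vs. YH9_DA was 6.63 (SE 1.01), and 4.52 without it. CA vs. NA was 7.11 (SE 1.03) in SCZ and 4.88 (SE 0.93) in YH9.

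Replicate 3 of SCZ_DA, the high dehydrin library, also had the highest level of its group for LEA, LEA3L-1 and DC-8, and the lowest for the cold-inducible protein. It was the highest of the 3 SCZ_DA libraries for 31.3% of all loci tested and for 10 of 19 further LEA and cold-protein loci. In SCZ_NA, replicate 3 was the highest for 4 of the 6 loci (LEA, LEA3L-1, the cold-inducible protein and the dehydrin) and the lowest for DC-8, against 29.8% of all loci tested and 5 of the same 19 further loci. The summed chlorophyll a-b binding level in the SCZ_DA libraries was between 4121 and 6939 FPKM, and whether differences among these plants bear on the spread of the dehydrin was not tested.

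**Figure D2:**
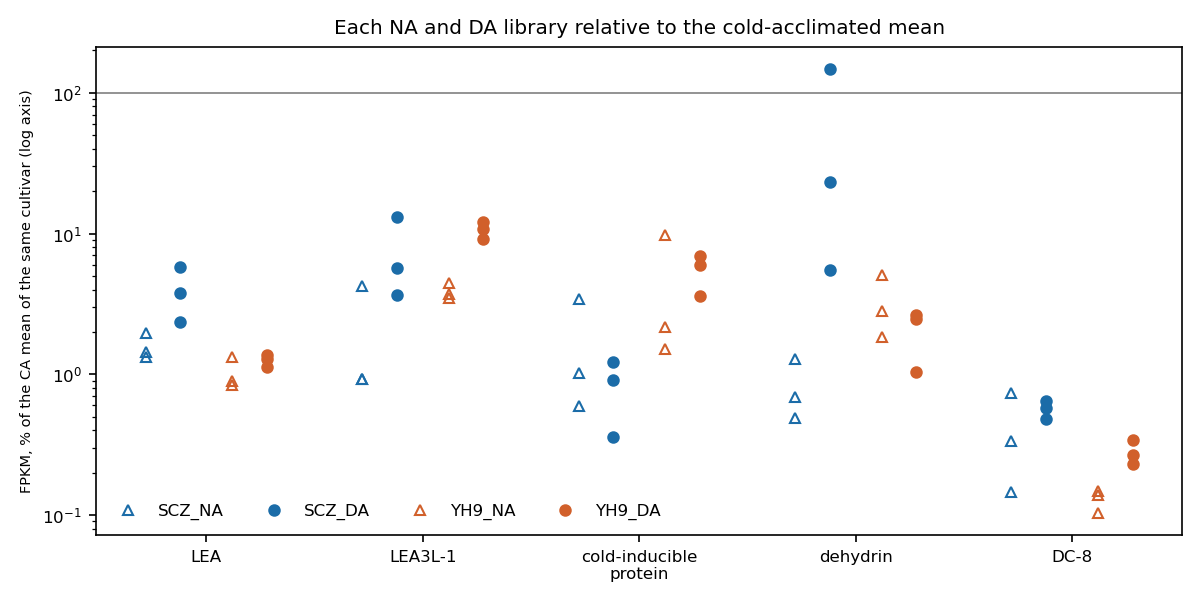
FPKM of each NA library (open triangles) and each DA library (filled circles) as a percentage of the mean of the CA libraries of the same cultivar, on a log axis, for 5 loci (horizontal), blue for SCZ and orange for YH9, with the line at 100% for the CA mean. The SCZ_DA dehydrin libraries stand at 5.50%, 23.4% and 147%, while the DC-8 libraries of both cultivars stay under 1% at DA.

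DC-8 (CSS032854) was close to silent at normal temperature. By edgeR it had the largest log2 fold change of the 5 genes in both cultivars from NA to CA, the contrast on which it was chosen. By limma on log2(FPKM + 1) it was below LEA in SCZ (5.86 against 5.94). The levels of DC-8 were 0.593, 0.267 and 0.117 FPKM in SCZ_NA and 0.180, 0.134 and 0.192 FPKM in YH9_NA. Under cold it had 97.0, 99.8 and 44.1 FPKM in SCZ_CA and 134, 111 and 143 FPKM in YH9_CA. In FPKM YH9 was here the higher cultivar, without overlap, the reverse of LEA3L-1, the cold-inducible protein and the dehydrin. Of these genes LEA3L-1 alone was called in SCZ_CA vs. YH9_CA by edgeR. As a description, the log2 difference in DC-8 was −0.51 (SE 0.45). At DA it was at 0.466, 0.388 and 0.516 FPKM in SCZ and 0.440, 0.347 and 0.297 FPKM in YH9. In YH9 these 3 values were all above the NA values, whereas in SCZ they lay within the NA range. The log2 fold change of CA vs. NA was 7.90 (SE 0.60) in SCZ and 9.48 (SE 0.65) in YH9, and of DA vs. CA −7.58 and −8.59.

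The second locus of this identifier, MSTRG.16970, had the same shape at lower levels. It had 11.2, 6.03 and 1.15 FPKM in SCZ_CA and 14.2, 10.96 and 16.4 FPKM in YH9_CA. At NA and DA it had reads in a single library of SCZ_NA (0.0489 FPKM, 9 counts), SCZ_DA (0.0715 FPKM, 12 counts) and YH9_DA (0.106 FPKM, 15 counts), and none in YH9_NA. Against a floor of 3 counts in each YH9_NA library, its mean CPM, the count scaled by library size, in YH9_CA was at least 736-fold higher. The level in SCZ_CA replicate 3 was the lowest of the 6 CA libraries at this locus and at DC-8.

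The differences between the cultivars at one stage were tested by edgeR's quasi-likelihood test across all 29019 loci with Benjamini-Hochberg adjustment. All 6 loci were tested at CA. The choice of DC-8 used the CA libraries of both cultivars, and both DC-8 loci passed the filter only through CA libraries. Nothing is therefore read from the tests of both DC-8 loci at CA. At NA and DA the test was kept to LEA, LEA3L-1 and the cold-inducible protein, because the choice of the dehydrin used SCZ_NA and SCZ_DA, the choice of DC-8 used the NA libraries, and both DC-8 loci were under 1 FPKM in every NA and DA library. Before acclimation none of these 3 genes was called in SCZ_NA vs. YH9_NA by edgeR, DESeq2 or limma, while 19.2% of all loci tested were called by edgeR. An unadjusted p under 0.05 was found for 0 of the 3 by edgeR and limma and for 1 by DESeq2. The adjusted p by edgeR was 0.181 for LEA3L-1, with a log2 fold change of 1.11 (SE 0.55), 0.499 for LEA and 0.981 for the cold-inducible protein. As a description, DC-8 had a log2 fold change of 1.08 (SE 0.48) and the dehydrin one of −0.42 (SE 0.79). The value for DC-8 rested on single libraries, and was 0.070 without SCZ_NA replicate 1 and 1.504 without SCZ_NA replicate 3.

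Under cold, LEA3L-1 alone of LEA, LEA3L-1, the cold-inducible protein and the dehydrin was called in SCZ_CA vs. YH9_CA. There 27.3% of all loci tested were called and 12.8% were called higher in SCZ_CA. LEA3L-1 had a mean of 8622 ± 3305 FPKM (SD, n = 3) in SCZ_CA and of 2073 ± 181 FPKM in YH9_CA. SCZ_CA was thus higher by 2.28 ± 0.57 (SE) on the log2 scale, with an adjusted p of 0.00616 by edgeR. The call held under every alternative tried, with log2 fold changes from 1.98 to 2.56. The cold-inducible protein, with means of 213 ± 70.6 and 73.2 ± 15.0 FPKM, was higher in SCZ_CA by 1.78 ± 0.68 (SE, adjusted p = 0.0560). The dehydrin, with 2820 ± 524 and 933 ± 119 FPKM, was higher by 1.82 ± 0.81 (SE, adjusted p = 0.0985). Neither passed the threshold here, and both did by DESeq2 and with the spread taken from SCZ_CA and YH9_CA alone. The first also passed by limma on log2(FPKM + 1) and without SCZ_NA replicate 1 or 3, SCZ_CA replicate 1 or YH9_NA replicate 1 or 2 (adjusted p = 0.0173 to 0.0462 by edgeR), and the second without SCZ_DA replicate 1 or 3 (adjusted p = 0.0338 and 0.0188). LEA had a log2 fold change of −0.12 (SE 0.31), with an adjusted p of 0.790 by edgeR. As a description, DC-8 and MSTRG.16970 had log2 fold changes of −0.51 (SE 0.45) and −1.03 (SE 1.15). MSTRG.16970 was called lower in SCZ_CA by limma at either pseudocount, and nothing is read from this call.

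After de-acclimation LEA and LEA3L-1 were called higher in SCZ_DA than in YH9_DA, 2 of the 3 genes tested there, where 24.0% of all loci tested were called and 11.4% were called higher in SCZ_DA. LEA had 92.8 ± 40.6 FPKM in SCZ_DA and 36.7 ± 3.50 FPKM in YH9_DA, a log2 difference of 1.51 ± 0.32 (SE) with an adjusted p of 0.00207 by edgeR. This call held under every alternative tried. LEA3L-1 had 646 ± 430 and 221 ± 31.6 FPKM, a log2 difference of 1.73 ± 0.56 (SE) with an adjusted p of 0.0287. It was no longer called without SCZ_DA replicate 3, where the difference was 0.9997 (adjusted p = 0.208), without any single YH9_DA library (adjusted p = 0.0633 to 0.0992) and by limma (adjusted p = 0.0632 and 0.0659). The cold-inducible protein gave −1.02 ± 0.70 (SE, adjusted p = 0.312). As a description, DC-8 gave 0.51 ± 0.47 (SE).

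**Figure D3:**
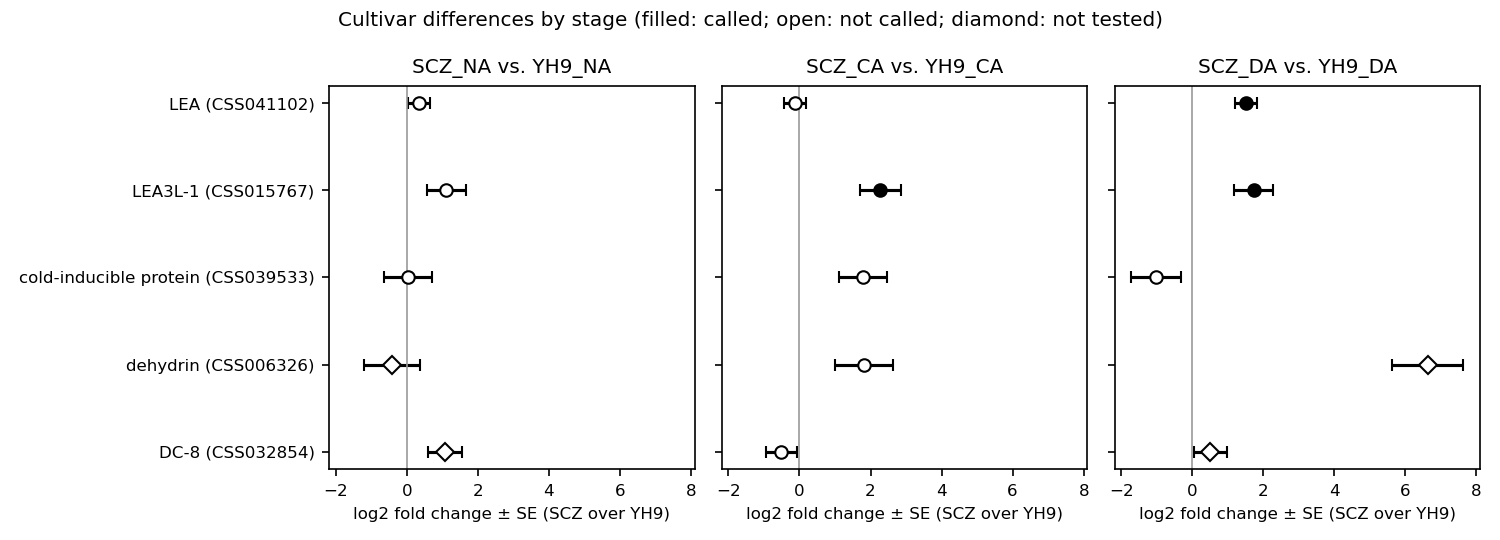
Log2 fold change of SCZ over YH9 with its SE (horizontal) at NA, CA and DA for 5 loci (vertical), filled where called at an adjusted p under 0.05 and at least 2-fold, open circles where tested and not called, and open diamonds for the dehydrin and DC-8 at NA and DA, which were not tested there. No tested locus was called at NA, LEA3L-1 was called at CA (2.28), and LEA (1.51) and LEA3L-1 (1.73) were called at DA.

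The fall from CA to DA was tested for the 3 genes chosen by the study, since DC-8 and the dehydrin were chosen on contrasts that share these libraries. All 3 were called lower in DA in both cultivars, where 29.1% of all loci tested were called in SCZ (13.5% lower in DA) and 23.5% in YH9 (10.4% lower in DA). Genes known to be raised by cold start high in the CA libraries, so this test is not independent of what marks them as cold-regulated. A fall was thus likely in advance, and nothing is read from these calls. LEA fell by 4.82 on the log2 scale in SCZ (SE 0.36, adjusted p = 8.6e-07 by edgeR) and fell by 6.46 in YH9 (SE 0.39, adjusted p = 6.3e-07). LEA3L-1 fell by 3.93 in SCZ (SE 0.61, adjusted p = 0.000199) and fell by 3.38 in YH9 (SE 0.59, adjusted p = 0.000704). The cold-inducible protein fell by 7.12 in SCZ (SE 0.87, adjusted p = 3.1e-05) and fell by 4.32 in YH9 (SE 0.76, adjusted p = 0.000733). In FPKM, the DA mean was 3.96% of the CA mean for LEA in SCZ and 1.26% in YH9, 7.49% and 10.7% for LEA3L-1, and 0.831% and 5.51% for the cold-inducible protein.

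Whether the 2 cultivars changed by different amounts was tested as the difference of their log2 fold changes. It was tested for LEA, LEA3L-1 and the cold-inducible protein, and is a description for the others, whose choice used these changes. From NA to CA none of the 3 was called (adjusted p from 0.347 to 0.599 by edgeR), where 2.57% of all loci tested were called. An unadjusted p under 0.05 was found for 0 of them by edgeR, DESeq2 or limma, and DESeq2 and limma also called 0. As a description, the dehydrin had a difference of 2.23 (SE 1.13) in favour of SCZ, between 1.67 and 2.63 when a library was left out. DC-8 had one of −1.58 (SE 0.66), which was −0.56 without SCZ_NA replicate 1 and −2.01 without SCZ_NA replicate 3. From CA to DA none of the 3 was called by edgeR, where 1.73% of all loci tested were, and 2 had an unadjusted p under 0.05. LEA fell less in SCZ, with a difference of 1.64 (SE 0.44, adjusted p = 0.0720), and the cold-inducible protein fell more in SCZ, with a difference of −2.79 (SE 0.97, adjusted p = 0.160). DESeq2 called both (adjusted p = 0.00803 and 0.0437), and limma on log2(FPKM + 1) called that of LEA (adjusted p = 0.0333), as did edgeR without SCZ_DA replicate 1 (adjusted p = 0.0323). For the dehydrin the difference from CA to DA was 4.81 (SE 1.17), and 2.71 without SCZ_DA replicate 3, given as a description.

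Other loci annotated as LEA, dehydrin, cold-regulated or desiccation-related proteins were collected by product name, 29 loci in all, of which 19 were tested. In SCZ_CA vs. SCZ_NA 7 of the 19 rose and 3 fell, against 4360 and 5531 of all 29019 loci, and their median log2 fold change was 1.39 against −0.06 over all loci. In YH9_CA vs. YH9_NA 7 rose and 1 fell, against 3385 and 4112, with medians of 1.23 and −0.01. The same 5 loci rose in both cultivars and 1 fell in both. With the spread taken from SCZ_CA and SCZ_NA alone 5 rose and none fell. Returning to normal temperature, 6 fell and none rose in SCZ_DA vs. SCZ_CA, or 31.6% of the list. Of all loci 29.1% were called there in either direction and 13.5% were called lower in DA. In YH9_DA vs. YH9_CA 8 fell and none rose, or 42.1% of the list. Of all loci 23.5% were called there in either direction and 10.4% were called lower in DA. No locus of the list was called in YH9_DA vs. YH9_NA by edgeR, by DESeq2 or by limma, and none had an unadjusted p under 0.05, where 0.376% of all loci were called. In SCZ_DA vs. SCZ_NA, where 3.03% of all loci were called, 1 of the 19 was called higher by edgeR, 6 had an unadjusted p under 0.05, and 4 were called by DESeq2 and 3 by limma at either pseudocount.

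Of these loci, CSS024403, named like CSS039533 a putative cold-inducible protein, had a higher mean level than each of the 5 genes in both CA groups. In SCZ_CA replicate 2, however, it had 6240 FPKM, below LEA3L-1 in the same library, and at DA in SCZ its mean of 471 FPKM was below those of LEA3L-1 and the dehydrin. It had 15075 ± 9856 FPKM in SCZ_CA and 3811 ± 408 FPKM in YH9_CA, against 487 ± 181 in SCZ_NA and 205 ± 209 in YH9_NA. It rose in both cultivars, with log2 fold changes of 5.12 and 4.25, and fell again at DA. It was called higher in SCZ_CA than in YH9_CA by 2.17 on the log2 scale, with an adjusted p of 0.0227 by edgeR, a call lost without SCZ_CA replicate 1, without any single YH9_CA library and by limma. The second dehydrin entry of the table, a locus that joins CSS013428 and CSS013433, had 2788 ± 1436 FPKM in SCZ_CA and 2635 ± 278 in YH9_CA, against 77.6 ± 22.0 and 62.6 ± 17.1 at NA, with log2 fold changes of 5.30 and 5.34. Unlike the dehydrin CSS006326 in SCZ_DA, it was at 54.5 ± 18.5 FPKM in SCZ_DA and 52.8 ± 8.08 in YH9_DA, under the NA means in both cultivars.

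The membrane proteins of the list had smaller log2 fold changes from NA to CA than the 5 genes. DC-8 was chosen on this contrast and LEA, LEA3L-1 and the cold-inducible protein as cold-regulated genes, so nothing is read from this difference. CSS041319, of the COR413 family first described in wheat, rose from 72.8 ± 15.8 to 428 ± 295 FPKM in SCZ (log2 fold change 2.65) and from 47.8 ± 6.08 to 575 ± 205 FPKM in YH9 (3.56). CSS003640, named for the small hydrophobic protein LTI6A of rice, rose in SCZ from 34.1 ± 5.47 to 138 ± 112 FPKM (log2 fold change 2.097). The SCZ_CA libraries had 72.8, 267 and 73.3 FPKM, and the log2 fold change was as low as 1.21 among the alternatives, still called. In YH9 its NA and CA levels were 37.2 ± 4.30 and 56.1 ± 10.0 FPKM, and it was not called there. The difference between the 2 changes was not called either (1.53, SE 0.57, adjusted p = 0.159 by edgeR). CSS015413, which shares the product name of LEA3L-1, rose from 13.5 ± 5.57 to 48.8 ± 35.1 FPKM in SCZ. This call was lost without SCZ_NA replicate 2, without SCZ_CA replicate 2 or with the spread of the 2 groups alone. In YH9 it rose from 6.07 ± 0.448 to 48.0 ± 5.36 FPKM. CSS046320;CSS046318, a joined locus named for the cotton protein Lea5-D, was at 21.5 ± 7.49 and 20.5 ± 8.69 FPKM in SCZ and 10.5 ± 3.63 and 20.9 ± 2.69 FPKM in YH9 at NA and CA, and was called in neither.

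In SCZ_CA vs. YH9_CA 4 of the 19 loci were higher and 1 lower in SCZ, or 26.3% called, near the 27.3% of all loci. CSS038121, which shares a product name with CSS041102, was called higher in SCZ than in YH9 at NA, CA and DA. Its log2 fold changes were 1.19, 2.57 and 2.84, and the calls held under every alternative tried. In SCZ it rose from 50.7 ± 1.72 FPKM at NA to 124 ± 27.4 at CA and stood at 155 ± 47.7 at DA, whereas in YH9 it had 22.8 ± 3.42, 24.0 ± 3.80 and 24.5 ± 3.38 FPKM.

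**Figure D4:**
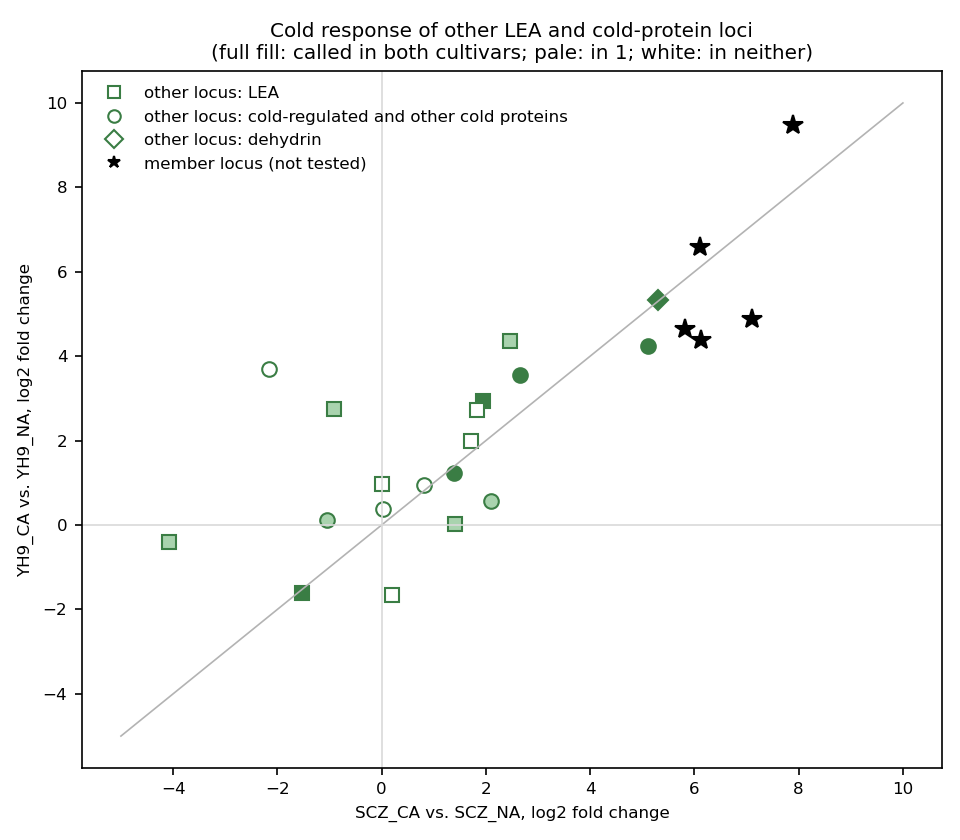
Log2 fold change of CA vs. NA in SCZ (horizontal) and in YH9 (vertical) for 19 other LEA and cold-protein loci, with squares for LEA, circles for cold-regulated and other cold proteins, a diamond for dehydrin and fill for the number of cultivars in which the locus was called, and for 5 member loci (stars, not tested), with the line of equal change. The stars lie at 5.82 to 7.90 in SCZ and 4.39 to 9.48 in YH9, and the other loci nearest to them are the joined dehydrin locus (5.30 and 5.34) and CSS024403 (5.12 and 4.25).

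The 6 loci were compared with all other described loci of at least 10 FPKM in some group (11510) by Pearson's r of log2(FPKM + 1) over the 18 libraries, as a description. All libraries of a group share its stage, and r follows the large step from NA to CA. Among the 6 loci themselves r was between 0.652 (dehydrin and MSTRG.16970) and 0.982 (LEA and DC-8). Nearest to LEA was CSS037197, named for REVEILLE 6, a MYB-like transcription factor of the clock family in Arabidopsis (r = 0.987), then CSS027115, a lipid phosphate phosphatase (0.986), and CSS045505, an uncharacterised protein (0.985). DC-8 was nearest to CSS031174, named for a delta(8)-fatty-acid desaturase, an enzyme that acts on sphingolipids (r = 0.990), then to the same REVEILLE 6 locus (0.987) and to the joined dehydrin locus CSS013428;CSS013433 (0.986).

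Nearest to LEA3L-1 was an unnamed product, CSS037850 (r = 0.981), then CSS035218, an iron-sulfur assembly protein (0.969), and CSS018297, an uncharacterised protein (0.967). The cold-inducible protein was nearest to CSS023991, a glucosyltransferase (r = 0.980), ahead of the uncharacterised CSS037431 (0.976) and CSS011866 (0.975). For the dehydrin the nearest was CSS052036, a protein disulfide-isomerase, which forms disulfide bonds in secreted proteins (r = 0.957), then CSS006298 (0.951) and CSS006726 (0.944), both uncharacterised. MSTRG.16970 was nearest to CSS034912, a cyclic nucleotide-gated ion channel (r = 0.969), CSS034727, a sulfoquinovosyl transferase of the chloroplast lipid pathway (0.968), and CSS050741, an early light-induced protein (0.967). Ranked by Spearman's rho, CSS037850 and CSS018297 stayed among the 3 nearest to LEA3L-1 and CSS023991 to the cold-inducible protein, and by the 6 group means CSS035218, CSS023991 and CSS052036 stayed. None of the other loci named here did.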

How the data were processed

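The deposited table holds, for 41021 loci and 18 libraries, FPKM values and estimated counts, which the authors derived from reads aligned to the tea plant genome with HISAT2 and assembled with StringTie. Per the labels the libraries carried unique molecular identifiers, and the submitters' processing notes list cutadapt 1.9, HISAT2 2.2.1, UMI-tools and StringTie 2.1.6. StringTie joins neighbouring genes into 1 locus and divides reads among copies, so levels of near copies are uncertain. The sources conflict: the processing notes name a mouse build (mm10) where the study's methods name the tea genome, and the methods name an earlier StringTie version. The alignment to tea is therefore taken from the methods and from the tea gene identifiers of the table, and no coordinates are used. The counts are whole numbers and were used as deposited.

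Loci with at least 1 FPKM in at least 3 libraries (29019) were fitted with edgeR 4.0.16 (R 4.3.3), with TMM scaling and 1 mean per group over all 18 libraries, the quasi-likelihood test and Benjamini-Hochberg adjustment over all loci tested. A locus was called at an adjusted p under 0.05 and at least 2-fold, and at an adjusted p under 0.05 alone for the difference of 2 changes. The fit was tested on simulated data. DESeq2 1.42.0 and limma 3.58.1 (on log2(FPKM + 1) and log2(FPKM + 0.1)), other scalings and filters, the replicate number as a block and leaving out each library were alternatives. Counts of 0 were read against a floor of 3 counts per library, which covers counting error only.

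The genes and lists were chosen with earlier results of these data known, and tests of the dehydrin and the DC-8 loci on changes or libraries used to choose them were replaced by descriptions. The named loci were the 5 genes, the 3 most alike to each, and in each class of the list the 3 tested loci with the highest group mean. The pattern for the list also matched 19 loci whose names end in the same letters (GEM-like and PHLOEM proteins), and these were left out after their names were seen. In each of 9 comparisons the libraries with the same replicate number were checked for pairing.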

Additional observations from a re-analysis of the deposited data

Results flagged for a closer look

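The test of the difference between the cultivars' changes was read for the 3 genes tested and the 7 named loci of the list. From NA to CA it called 1 of them, CSS038121. Its log2 fold change from NA to CA was greater in SCZ by 1.38 (SE 0.34, adjusted p = 0.0428 by edgeR). It was the 1 call among the 19 tested loci of the list, where 2.57% of all loci tested were called. All 3 SCZ_CA libraries (93.3 to 145 FPKM) were above all 3 SCZ_NA libraries (49.0 to 52.4 FPKM), while YH9_CA (20.7 to 28.1 FPKM) and YH9_NA (18.9 to 25.1 FPKM) overlapped. The call was lost in 15 of 28 alternatives, with an adjusted p of up to 0.111, and the difference stayed between 1.18 and 1.54. CSS038121 shares its product name with CSS041102, and the division of reads between these loci was not tested.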

How the results depend on the processing

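The counts of loci called were the same to within 1.5 times in 265 of 291 alternatives, and 26 moved. Many of these counts could hardly move, so the tally says little about stability. In SCZ_NA vs. YH9_NA and in the difference from NA to CA, 0 genes were called under every alternative. In the fall from CA to DA all 3 genes tested were called under every alternative. In SCZ_CA vs. YH9_CA the 1 call of 6 loci became 3 by DESeq2, 3 by limma on log2(FPKM + 1), 2 by limma on log2(FPKM + 0.1) and 3 with the spread of only the groups compared, and 1 to 2 when a library was left out. The limma counts include MSTRG.16970, and nothing is read from the DC-8 loci in these counts. In SCZ_DA vs. YH9_DA the 2 calls became 1 by limma at either pseudocount and 1 to 2 when a library was left out. For the difference from CA to DA, 2 loci were called by DESeq2, 1 by limma on log2(FPKM + 1) and 0 to 1 when a library was left out (1 without SCZ_DA replicate 1). Of the 19 other loci, the 10 called in SCZ_CA vs. SCZ_NA became 5 with the spread of only the groups compared, and 8 to 11 when a library was left out. In YH9_CA vs. YH9_NA the 8 became 6 to 9. In SCZ_CA vs. YH9_CA the 5 became 3 by limma on log2(FPKM + 1) and 3 to 5 when a library was left out, 3 without any single YH9_CA library, and 12 of 33 when the loci left out for their names were kept, an alternative chosen after seeing the data. The cause of these shifts was not tested.

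Differences that were not called changed sign in 5 cases. LEA in SCZ_CA vs. YH9_CA became 0.0083 without SCZ_CA replicate 3, and ran from −0.22 to 0.0083 when a library was left out. The cold-inducible protein in SCZ_NA vs. YH9_NA became −0.017 by DESeq2, −0.93 without SCZ_NA replicate 3, −0.40 without YH9_NA replicate 2 and −0.33 without YH9_NA replicate 3, and its highest value was 1.43 without YH9_NA replicate 1. For DC-8, limma on log2(FPKM + 1) gave 5.86 for SCZ_CA vs. SCZ_NA and 6.79 for YH9_CA vs. YH9_NA, since the pseudocount exceeds its NA levels. MSTRG.16970 was tested in SCZ_CA vs. YH9_CA only, because in each NA and DA group reads came from at most 1 library.

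Same-numbered libraries did not deviate together (correlations of −0.12 to 0.26 in 9 comparisons), so the numbers were not taken as pairs. With a replicate block the loci tested kept every count of calls (0, 1, 2, 3, 3, 0 and 0 over the 7 tested comparisons). These counts cover all 6 loci in SCZ_CA vs. YH9_CA, and elsewhere LEA, LEA3L-1 and the cold-inducible protein. Of the other loci 10, 7 and 5 were called. CSS038121 lost its difference between the cultivars (adjusted p = 0.0746) and CSS015413 its call in SCZ_DA vs. YH9_DA (adjusted p = 0.0625).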
